A study of Mus musculus with 8 samples.

Results

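The glycolysis and hypoxia response genes described here are 36 genes of the mouse, chosen by symbol from the 53819 gene rows of the count table, and all 36 were expressed well enough to be tested. They comprise 21 genes of glycolysis, from glucose uptake to lactate export, and 15 genes that are known as parts or targets of the hypoxia response. RNA was sequenced from bone marrow-derived macrophages (BMDM) of 4 mice, with a vehicle and a bilirubin culture from each mouse, so that 8 libraries formed 4 pairs. The mice were female BALB/cJ animals aged 8 weeks with no genetic alteration named, and their marrow cells were differentiated for 5 days with 25 ng/mL macrophage colony-stimulating factor (M-CSF). The vehicle cultures (n = 4) received DMSO and the bilirubin cultures (n = 4) received 2.5 µM bilirubin, the end product of heme breakdown, both for 48 h. The comparison asks how bilirubin changes gene expression in macrophages. Cells derived from marrow in culture, with M-CSF in the medium, are a model of macrophages and not macrophages taken from a tissue.

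Glycolysis converts glucose to pyruvate in the cytosol, and lactate dehydrogenase and the monocarboxylate transporters then turn pyruvate into lactate and carry it out of the cell. When oxygen is scarce, prolyl hydroxylases of the EGLN family no longer mark HIF-1α for destruction, and HIF-1α with its partner ARNT binds to promoters and raises the transcription of most glycolytic genes together with genes of mitophagy, collagen hydroxylation and oxygen sensing. Macrophages are known to raise glycolysis on inflammatory activation, also in the presence of oxygen, and HIF-1α is a known driver of that change.

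The hypoxia response element is bound at a short core, and the letters ACGTG or GCGTG were searched on both strands in the 250 bases before the start of each gene's most abundant transcript, in the GRCm39 genome with the GENCODE annotation. ACGTG was found for 20 of the 36 genes (55.6%), against 20.3% of the 13626 tested genes with such a window, GCGTG for 15 (41.7%), against 38.5%, and either form for 25 of 36 (69.4%), against 49.8%. The median GC content of the windows was 59.8% for the 36 genes and 55.6% for all. The 36 genes were picked for their known roles in glycolysis and the hypoxia response. The difference from all genes describes the list and not an effect of bilirubin, and was not tested. The palindrome CACGTG holds ACGTG on each strand and counts as 2 matches. Windows are printed here for *Pgk1* and *Slc16a3*, which rose under all settings tried, and for *Hif1a*, cut back where another transcript's exon covers them, with matches in capitals. They lie at chrX:105230456-105230705, + strand, chr11:120839033-120839274, + strand, and chr12:73954320-73954569, + strand, and each is written 5′ to 3′ on the gene's strand.
Pgk1: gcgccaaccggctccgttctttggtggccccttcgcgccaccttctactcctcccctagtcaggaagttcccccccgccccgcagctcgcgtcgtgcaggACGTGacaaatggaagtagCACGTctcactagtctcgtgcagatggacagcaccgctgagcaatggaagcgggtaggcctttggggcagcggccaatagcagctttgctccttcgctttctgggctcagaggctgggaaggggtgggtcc
Slc16a3: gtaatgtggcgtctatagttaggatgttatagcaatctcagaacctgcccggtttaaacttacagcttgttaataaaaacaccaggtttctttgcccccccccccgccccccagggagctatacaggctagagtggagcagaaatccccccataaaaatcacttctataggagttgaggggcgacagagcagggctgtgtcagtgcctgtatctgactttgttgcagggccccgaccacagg
Hif1a: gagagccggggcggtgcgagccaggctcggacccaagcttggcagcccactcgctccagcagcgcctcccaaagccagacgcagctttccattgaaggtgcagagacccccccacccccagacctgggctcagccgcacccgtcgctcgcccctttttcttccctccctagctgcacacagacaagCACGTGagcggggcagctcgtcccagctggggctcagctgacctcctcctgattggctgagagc
*Pgk1* held 2 separate matches, *Hif1a* 1 palindrome, and the window of *Slc16a3*, the gene with the largest rise, held none. The transcript used carried 60.8% of the gene's TPM for *Slc16a3*, and among the 36 genes this share was lowest for *Eno2* (26.1%). Starts of other transcripts were not searched, so a window without a match does not speak for the whole gene. A match is a stretch of letters and not a measured binding site.

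Libraries held 34142766 to 47071686 estimated counts on genes, and the shallowest was the bilirubin library of mouse 1. edgeR's quasi-likelihood test compared bilirubin with vehicle within mice after TMM scaling, and a gene passed at an adjusted p below 0.05, where the adjustment covered all 13722 genes tested. A positive log2 fold change means more transcript with bilirubin, and its standard error (SE) follows it. Levels are given as TMM-scaled CPM, the counts per 1e6 counts of a library, or as TPM, the corresponding measure per transcript length, where genes are compared with each other. All 8 macrophage markers listed (among them *Adgre1*, *Csf1r* and *Cd68*) were present, at mean levels of 30.3 to 21757 CPM. Their sum was 23823 to 24118 CPM in vehicle and 28204 to 30209 CPM in bilirubin libraries. Most of it came from a single gene with a mean of 21757 CPM, so the sum does not describe the whole list. Of the 8 markers, 3 (*Adgre1*, *Itgam* and *Lyz2*) passed the threshold as higher and 0 as lower. The part of this shift in the results given here was not tested. The summed markers of neutrophils, dendritic cells, lymphocytes, erythroid cells and mast cells stayed at or below 1.84 CPM in each library, with *Ncr1*, *Mcpt8* and *Fcer1a* at 0. Stromal markers summed to 1.98 to 5.66 CPM in vehicle and 2.08 to 5.48 CPM in bilirubin libraries. In bulk RNA, a change in the number of cells of a type and a change in RNA per cell cannot be told apart.

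In vehicle cultures, the most abundant of the 36 transcripts on the TPM scale encoded enzymes from aldolase onward. *Gapdh*, which oxidises glyceraldehyde 3-phosphate, had the highest mean level, 2823 ± 53.6 TPM (SD, n = 4), followed by *Pkm*, the pyruvate kinase of macrophages, with 2777 ± 44.8 TPM. Their difference was within the spread between mice. *Aldoa* came next with 2190.1 ± 41.0 TPM, then *Eno1* with 1134 ± 42.7, *Ldha* with 866 ± 25.2 and *Pgam1* with 829 ± 19.7 TPM. The last pair overlapped in spread, although *Ldha* was above *Pgam1* in each vehicle library. The glucose transporter *Slc2a1* had 83.5 ± 5.77 TPM and the lactate exporter *Slc16a3* 88.3 ± 7.48 TPM, so the transporters at the ends of the pathway lay far below those enzymes. The hypoxia response genes were lower as a group, from 1.48 ± 0.210 TPM for *Ddit4*, an inhibitor of mTORC1 signaling, to 126 ± 12.0 TPM for *Bnip3l*, a mitophagy receptor.

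**Figure D1:**
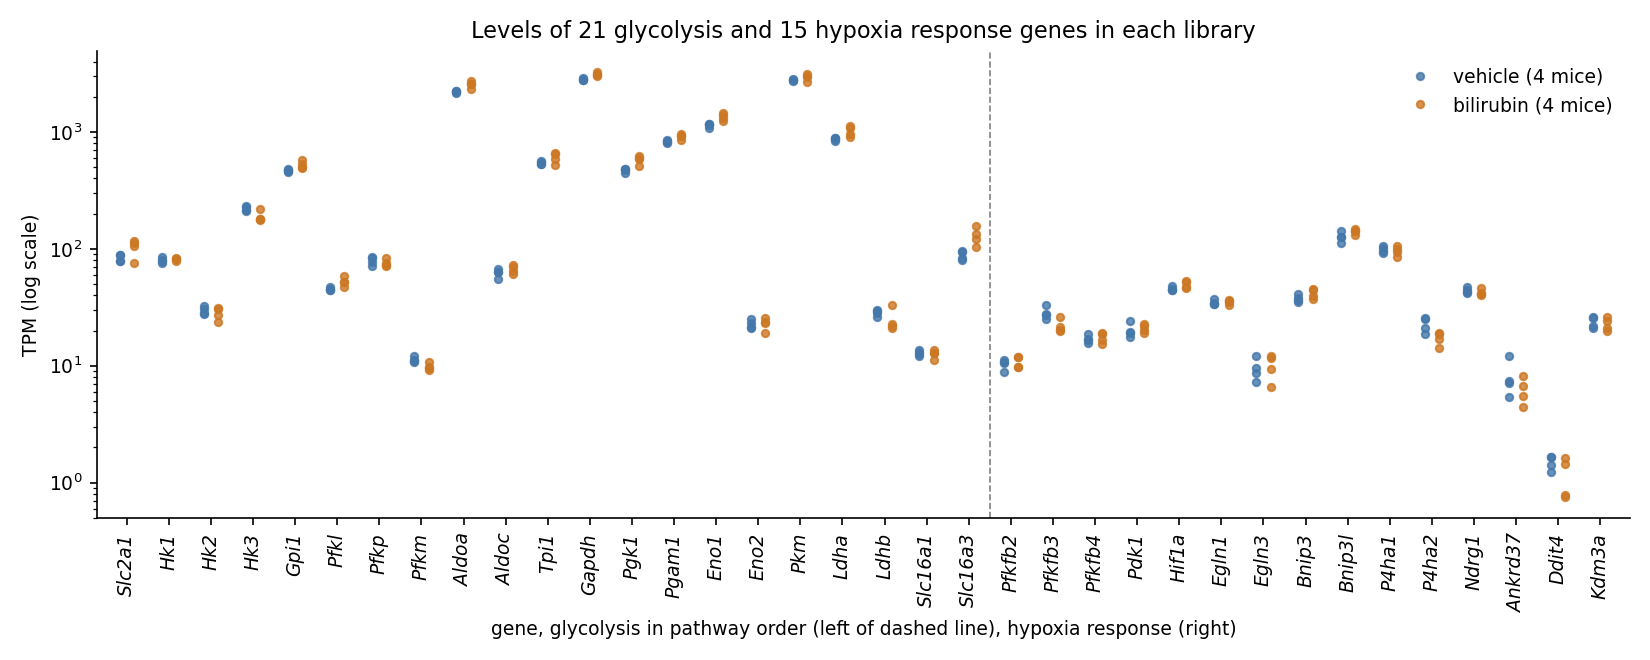
The level of each of the 36 genes in TPM on a log scale, with 1 point per library for the 4 vehicle and the 4 bilirubin cultures, and glycolysis in pathway order to the left of the dashed line. Gapdh, Pkm and Aldoa lie highest, and Ddit4 lies lowest.

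With bilirubin treatment, 8 of the 21 glycolysis genes rose and 0 fell (edgeR). They were *Gpi1*, *Pfkl*, *Aldoa*, *Gapdh*, *Pgk1*, *Eno1*, *Ldha* and *Slc16a3*. Among all 13722 tested genes 4.49% rose and 3.04% fell, 7.53% in either direction. Of the 15 hypoxia response genes, 1 rose (*Bnip3l*) and 1 fell (*Pfkfb3*). At an unadjusted p below 0.05 (edgeR) stood 15 of the 21 glycolysis genes, against 2851 of the 13722 tested genes. Of these glycolysis genes *Hk3* and *Pfkm* were lower and the rest higher, and DESeq2 called *Hk3* lower after adjustment. The median log2 fold change was 0.18 over the glycolysis genes, 0.022 over the hypoxia response genes and -0.002 over all tested genes. In 10 of the 21 glycolysis genes and 4 of the 15 hypoxia response genes the bilirubin culture was higher in all 4 mice, which held for 14.4% of all tested genes. It was lower in all 4 mice for 2 glycolysis genes (*Hk3* and *Pfkm*) and 2 hypoxia response genes (*Pfkfb3* and *P4ha2*), against 13.9% of all tested genes. Vehicle and bilirubin libraries did not overlap in CPM for 8 glycolysis genes, which were the genes that rose other than *Ldha*, and *Pfkm*, which was lower. The same held for 1 hypoxia response gene (*Pdk1*) and for 10.6% of all tested genes. The rises of the 8 genes past the threshold were between 13.9% and 48.6%. The 36 genes were listed because of what they are known to do, with earlier results of these data known, and the lists as such were not tested.

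The mice differed in how far the glycolysis genes moved. Their median log2 change was 0.011, 0.15, 0.23 and 0.23 for mice 1 to 4, and that of the hypoxia response genes was -0.045, 0.037, 0.11 and 0.089. The bilirubin culture was higher for 12 of the 21 glycolysis genes in mouse 1 and for 16 or 17 in each of the other mice. Over all tested genes the median lay between -0.001 and 0.002 in each mouse. The bilirubin library of mouse 1 was also the shallowest, and the part of depth in this difference was not tested. Without mouse 1, 13 glycolysis genes passed the threshold as higher. Without mouse 3 only *Pgk1* and *Slc16a3* did, and without mouse 4 only *Eno1*, *Pgk1* and *Slc16a3*. Without mouse 2, 6 passed, and *Gapdh* and *Ldha* were lost. The number over all genes moved in the same way, to 1910 without mouse 1 and to 634, 377 and 441 without mice 2, 3 and 4, from 1033.

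**Figure D2:**
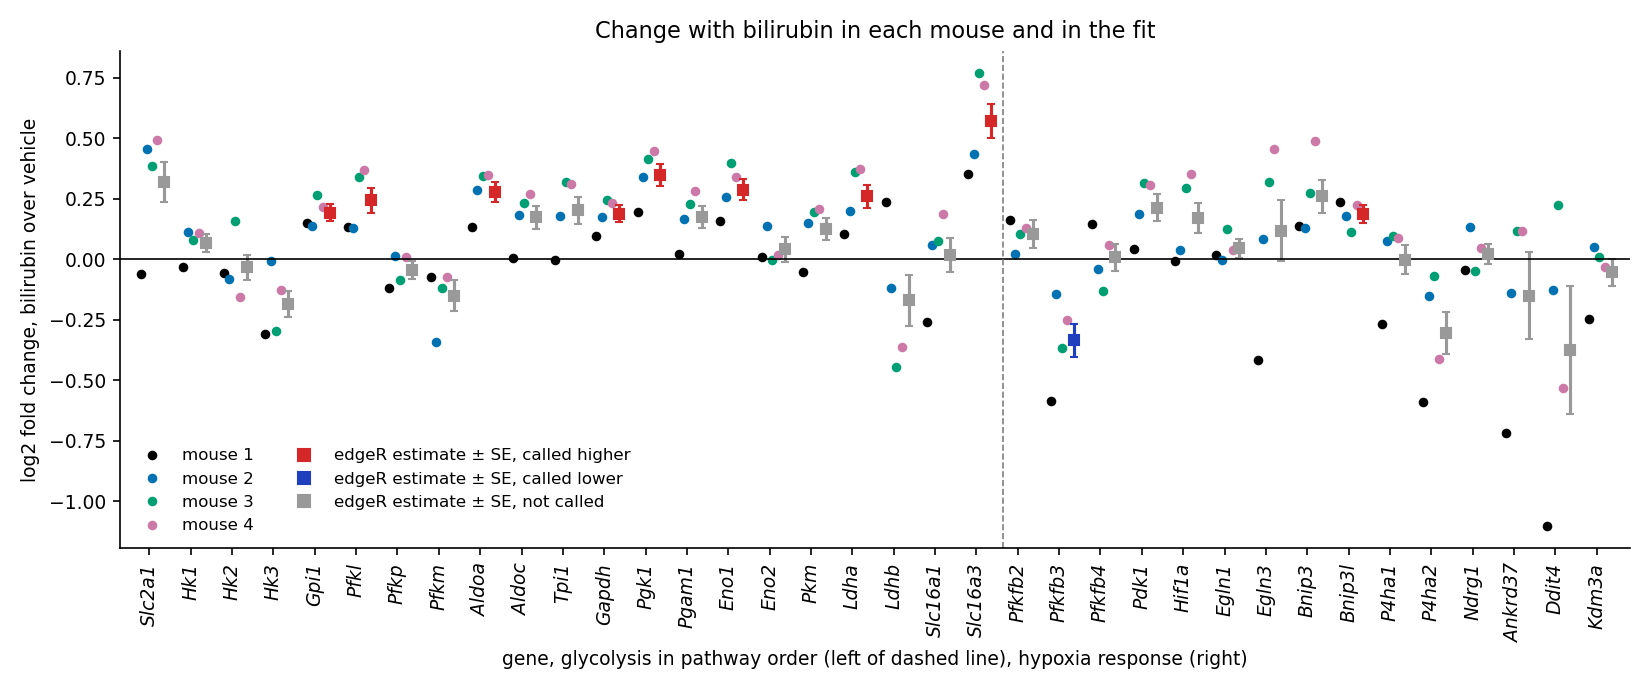
The log2 change of bilirubin over vehicle for each gene, with 1 round point per mouse and a square for the edgeR estimate ± SE. Red and blue squares mark the 9 genes that rose and the 1 that fell, and mouse 1 (black) lies lowest of the 4 mice for many genes.

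At glucose entry, the list holds 1 transporter, which did not pass the threshold. *Slc2a1* (ENSMUSG00000028645, chr4:118965908-118996365, + strand), which encodes GLUT1, was at 124, 145, 145 and 129 CPM with vehicle (values here and for later genes are in the order of mice 1 to 4). It was at 119, 198, 189 and 181 CPM with bilirubin. The bilirubin culture was higher in mice 2, 3 and 4 and lower in mouse 1, the groups overlapped, and the log2 fold change of 0.32 ± 0.084 had an adjusted p of 0.0592. *Slc2a1* passed with limma-voom, with no filter on low counts and without mouse 1 (adjusted p = 1.17e-05).

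Glucose is then phosphorylated by a hexokinase. *Hk3* (ENSMUSG00000025877, chr13:55153798-55169276, - strand), the most abundant of the 3 hexokinase genes, was at 393, 425, 422 and 385 CPM with vehicle. With bilirubin it was at 317, 424, 344 and 353 CPM. Its level was lower in the bilirubin culture of each mouse, though hardly so in mouse 2, and the groups overlapped (log2 fold change -0.18 ± 0.053, adjusted p = 0.0831, edgeR). It passed the threshold as lower with DESeq2, on library size alone, with no filter on low counts and without mouse 2. *Hk1* had a log2 fold change of 0.07 (adjusted p = 0.363) and *Hk2*, the inducible hexokinase, one of -0.03 (adjusted p = 0.791). The share of *Hk3* in the TPM of the 3 hexokinase genes was 66.8% ± 1.37 (SD, n = 4) with vehicle and 63.3% ± 2.47 with bilirubin, lower in 4 of 4 mice, and that of *Hk1* 24.2% ± 0.884 and 27.2% ± 1.34, higher in 4 of 4. These shares are a description, since 4 pairs are too few for an exact two-sided test to reach the threshold.

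*Gpi1* (ENSMUSG00000036427, chr7:33900755-33929780, - strand), which converts glucose 6-phosphate to fructose 6-phosphate, was at 426, 445, 440.0 and 441 CPM in vehicle cultures of mice 1 to 4. Bilirubin cultures were at 472, 490.4, 529 and 511 CPM. All bilirubin libraries lay above all vehicle libraries, and the log2 fold change was 0.19 ± 0.035 (adjusted p = 0.0126). The call was lost without mouse 3 (adjusted p = 0.114) or mouse 4 (0.103), and with an offset for transcript length (0.0549).

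Phosphofructokinase, the main control point of the pathway, has 3 subunit genes, and the liver-type subunit was the member that rose. *Pfkl* (ENSMUSG00000020277, chr10:77818084-77845922, - strand) was at 99.9, 99.4, 102 and 95.6 CPM with vehicle. It was at 109.7, 109, 129.8 and 124 CPM with bilirubin. The groups did not overlap, mice 3 and 4 moved most, and the log2 fold change was 0.24 ± 0.051 (adjusted p = 0.0237). Without mouse 3 it was 0.21 (adjusted p = 0.178) and without mouse 4 0.20 (adjusted p = 0.147), so that the call was lost while the estimate changed little. *Pfkp*, the platelet-type subunit (ENSMUSG00000021196, chr13:6629798-6698970, - strand), had the highest TPM of the 3. Its vehicle libraries were at 135, 151, 149.5 and 141 CPM and its bilirubin libraries at 124, 153, 141 and 142 CPM. These overlapped, with no common direction among the mice (log2 fold change -0.04 ± 0.037, adjusted p = 0.572). *Pfkm*, the muscle-type subunit, was at 19.2, 21.2, 18.6 and 19.1 CPM with vehicle and 18.3, 16.7, 17.2 and 18.2 CPM with bilirubin. It was lower with bilirubin in 4 of 4 mice and the groups did not overlap, but the log2 fold change of -0.15 ± 0.064 did not pass (adjusted p = 0.231). In the TPM of the 3 genes, *Pfkl* made up 33.5% ± 1.57 with vehicle and 37.9% ± 3.27 with bilirubin, higher in 4 of 4 mice, and *Pfkp* 58.2% ± 1.86 and 54.9% ± 3.54, higher in 1 of 4.

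Aldolase splits the 6-carbon sugar, and *Aldoa* (ENSMUSG00000030695, chr7:126393822-126399923, - strand) was its main gene, with 97.2% ± 0.179 of aldolase TPM in vehicle cultures. Vehicle libraries held 1664, 1769, 1759 and 1706 CPM of *Aldoa* and bilirubin libraries 1829, 2158, 2231 and 2172 CPM. The rise was seen in each mouse without overlap and was smallest in mouse 1 (log2 fold change 0.28 ± 0.042, adjusted p = 0.00483). Its adjusted p was 0.0613 without mouse 3 and 0.0518 without mouse 4. The symbol stands for 2 gene IDs in the table, so that its count is their sum. *Aldoc* was higher in 4 of 4 mice with a log2 fold change of 0.17, and did not pass (adjusted p = 0.0742). It passed with no filter on low counts and without mouse 1. *Tpi1* (ENSMUSG00000023456, chr6:124787549-124791273, - strand), which interconverts the triose phosphates, was at 444, 454, 462 and 468 CPM with vehicle and 443, 515, 577 and 582 CPM with bilirubin. Mouse 1 did not move while the other mice were higher with bilirubin (log2 fold change 0.20 ± 0.055, adjusted p = 0.066). *Tpi1* passed as higher with DESeq2, with no filter on low counts and without mouse 1.

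*Gapdh* (ENSMUSG00000057666, chr6:125135289-125143518, - strand) opens the energy-yielding phase of glycolysis and is a common reference gene for quantitative PCR, also in the methods of this study. Its vehicle libraries were at 2000.1, 2015, 2000.3 and 2047 CPM, the narrowest spread of the 36 genes. Its bilirubin libraries were at 2139, 2276, 2375 and 2403 CPM. Every bilirubin library lay above every vehicle library, and the log2 fold change was 0.19 ± 0.035 (adjusted p = 0.0151), a difference of 13.9%. The call was lost without mouse 2 (adjusted p = 0.0674), mouse 3 (0.129) or mouse 4 (0.131).

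*Pgk1* (ENSMUSG00000062070, chrX:105230706-105247305, + strand), whose enzyme makes the first ATP of the pathway, showed the largest rise among the enzymes. Vehicle cultures of mice 1 to 4 held 464, 516, 515 and 499 CPM and bilirubin cultures 532, 653, 686 and 681 CPM. The groups did not overlap, although the bilirubin culture of mouse 1 was close to the highest vehicle culture. Its log2 fold change was 0.35 ± 0.045 (adjusted p = 0.00241), and it passed in all 12 alternative settings, with adjusted p-values up to 0.0385.

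*Pgam1* (ENSMUSG00000011752, chr19:41900341-41907104, + strand), the phosphoglycerate mutase, was at 829, 879, 863 and 829 CPM with vehicle and 843, 989, 1012 and 1008 CPM with bilirubin. It was higher in 4 of 4 mice, by little in mouse 1, and the groups overlapped. The log2 fold change was 0.18 ± 0.045 (adjusted p = 0.0525), and it passed in 5 of 12 alternatives, among them DESeq2 and limma-voom. A processed copy, *Pgam1-ps2*, held 258 to 434 counts. *Eno1* (ENSMUSG00000063524, chr4:150321073-150337027, + strand), the main enolase gene, held 958, 1033, 1026 and 1036 CPM in vehicle and 1069, 1236, 1352 and 1311 CPM in bilirubin libraries. It rose without overlap (log2 fold change 0.29 ± 0.043, adjusted p = 0.00475) and missed the threshold in 1 of 12 alternatives, without mouse 3 (adjusted p = 0.0512). *Eno1b*, a near-identical copy, held 10003 to 14839 counts and moved by 0.26 (adjusted p = 0.0114), and reads may have been split between the pair. *Eno2*, the neuronal enolase, had a log2 fold change of 0.04 (adjusted p = 0.717).

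*Pkm* (ENSMUSG00000032294, chr9:59563364-59586663, + strand) makes pyruvate. Its vehicle libraries were at 3798, 3926, 3904 and 3769.9 CPM and its bilirubin libraries at 3667, 4360.0, 4470.2 and 4349 CPM. Mouse 1 was lower and the other mice higher with bilirubin, and the log2 fold change was 0.13 ± 0.046 (adjusted p = 0.164). It passed with no filter on low counts and without mouse 1. *Gm49759*, which overlaps *Pkm* on the same strand, held a mean of 3114 counts. The gene is spliced to hold either the M1 or the M2 exon, and the M2 form is the isoform of most proliferating and immune cells. Both exons are 167 bases long on the + strand of GRCm39, M1 at chr9:59582312-59582478 and M2 at chr9:59582851-59583017, and are identical at 103 positions (61.7%). They are shown because they define the M1 and M2 isoforms, with the differing bases in capitals.
Pkm M1 exon: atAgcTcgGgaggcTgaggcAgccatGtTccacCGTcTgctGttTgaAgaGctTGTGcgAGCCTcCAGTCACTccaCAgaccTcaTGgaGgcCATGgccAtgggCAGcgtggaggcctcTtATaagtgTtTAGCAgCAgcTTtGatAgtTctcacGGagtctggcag
Pkm M2 exon: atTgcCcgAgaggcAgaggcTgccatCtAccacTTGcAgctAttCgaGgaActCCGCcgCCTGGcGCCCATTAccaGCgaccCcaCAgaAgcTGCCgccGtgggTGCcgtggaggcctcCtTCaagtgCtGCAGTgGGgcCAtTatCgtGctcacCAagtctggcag
The transcript with the M2 exon made up 82.1, 79.7, 79.3 and 80.5% of the TPM of the pair in vehicle cultures and 83.2, 78.2, 80.9 and 80.2% in bilirubin cultures. The means were 80.4% ± 1.23 and 80.6% ± 2.04 (SD, n = 4), a difference smaller than the spread between mice. The annotated transcripts also differ in the length of their last exon (648 bases with M2 and 462 with M1), and the deposited lengths are 2432 and 2041 bases, so much of the sequence that tells the transcripts apart lies outside the exons shown.

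*Ldha* (ENSMUSG00000063229, chr7:46490899-46505061, + strand), which reduces pyruvate to lactate, was at 740.4, 786, 804 and 794 CPM with vehicle and 797, 904, 1034 and 1029 CPM with bilirubin. The bilirubin culture of mouse 1 lay within the vehicle range and the other 3 above it. Its log2 fold change was 0.26 ± 0.049 (adjusted p = 0.0152), and the call was lost without mouse 2 (0.0526), mouse 3 (0.13) or mouse 4 (0.111), and when mice were not paired (0.0699). *Ldhb*, which favors the reverse reaction, was higher with bilirubin in mouse 1 and lower in mice 2, 3 and 4 (log2 fold change -0.17 ± 0.11, adjusted p = 0.436). Without mouse 1, *Ldhb* passed as lower (adjusted p = 0.0147).

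The largest rise of the 36 genes was at lactate export. *Slc16a3* (ENSMUSG00000025161, chr11:120838846-120851694, + strand) encodes MCT4, the transporter that highly glycolytic cells use to release lactate. It held 87.4, 107, 104 and 94.6 CPM with vehicle and 112, 145, 177 and 156 CPM with bilirubin. The groups did not overlap, and mice 3 and 4 moved most (log2 changes by mouse of 0.35, 0.44, 0.77 and 0.72). The log2 fold change was 0.57 ± 0.070 (adjusted p = 0.00194), a difference of 48.6%, and the call held in all 12 alternatives, with adjusted p-values up to 0.0253. *Slc16a1*, which encodes MCT1, had a log2 fold change of 0.02 ± 0.071 (adjusted p = 0.928). The share of *Slc16a3* in the TPM of the pair was 87.3% ± 0.959 (SD, n = 4) with vehicle and 91.0% ± 1.05 with bilirubin, and was higher in 4 of 4 mice.

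**Figure D3:**
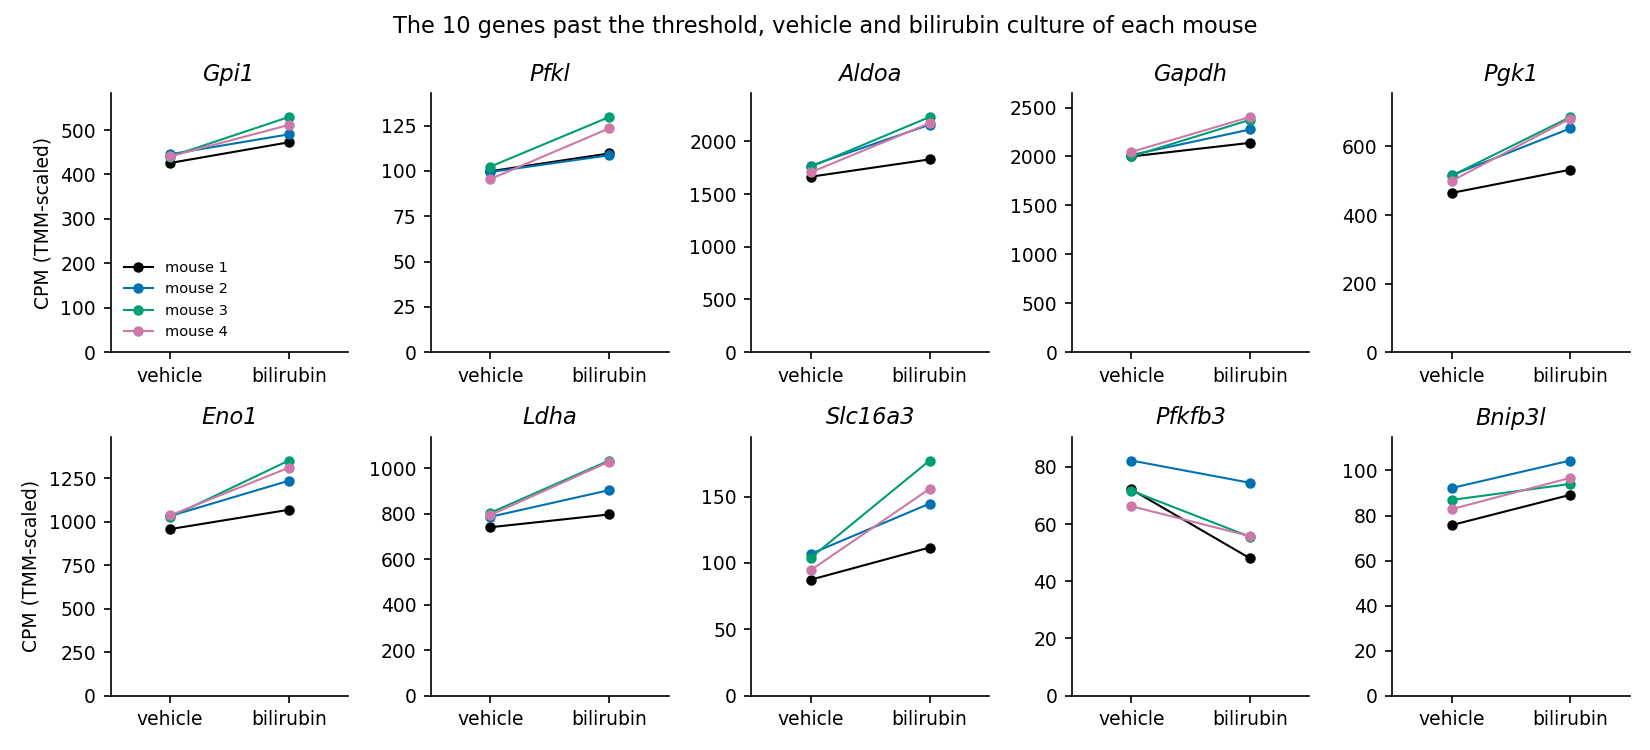
The CPM of the 10 genes past the threshold in the vehicle and the bilirubin culture of each mouse, with 1 line per mouse and each axis starting at 0. Lines rise for 9 genes and fall for Pfkfb3, and the slopes of mouse 1 (black) are shallow for most of the glycolysis genes.

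Summed over the 21 glycolysis genes, transcripts took up 1.29% ± 0.0134 (SD, n = 4) of all TPM in vehicle cultures and 1.44% ± 0.0822 in bilirubin cultures. The share was 1.27, 1.30, 1.30 and 1.28% in vehicle cultures of mice 1 to 4 and 1.34, 1.43, 1.53 and 1.46% in bilirubin cultures. It was higher in 4 of 4 mice without overlap, and the spread was wider among bilirubin than among vehicle cultures. The hypoxia response genes took up 0.0528% ± 0.00298 and 0.0534% ± 0.00232. *Gapdh*, *Pkm* and *Aldoa*, with vehicle means of 2823, 2777 and 2190 TPM, weigh most in the glycolysis sum, so it does not describe the whole list. The log2 fold change was positive for 16 of the 21 genes. A share of TPM is relative to all other transcripts in the library.

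**Figure D4:**
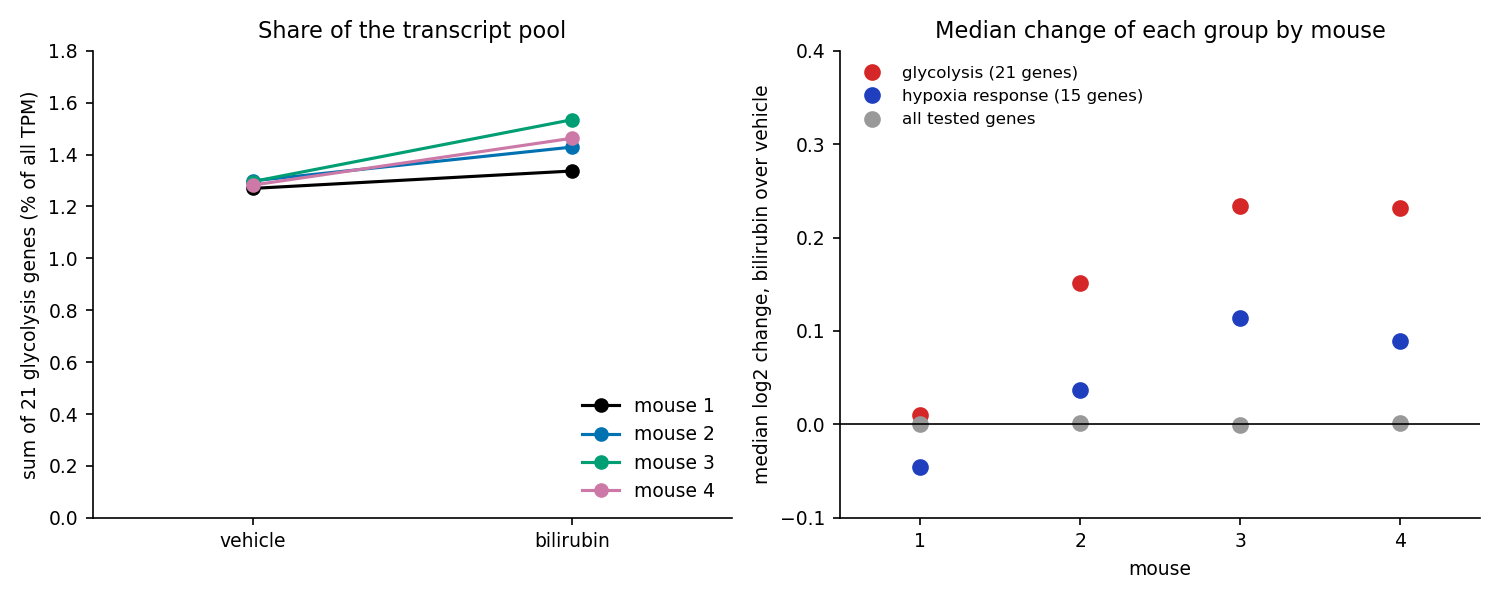
Left, the summed share of the 21 glycolysis genes in all TPM, with 1 line per mouse from vehicle to bilirubin. Right, the median log2 change of the glycolysis genes, the hypoxia response genes and all tested genes in each mouse, with glycolysis above hypoxia response in all 4 mice.

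The hypoxia sensor and its target factor gave no call. *Hif1a* (ENSMUSG00000021109, chr12:73948149-73996321, + strand), the oxygen-regulated subunit, was at 131, 132, 126 and 127 CPM with vehicle and 130.4, 135, 154 and 162 CPM with bilirubin. Mice 3 and 4 were higher with bilirubin and mice 1 and 2 hardly moved (log2 fold change 0.17 ± 0.063, adjusted p = 0.167). It passed without mouse 1 (adjusted p = 0.0157) and with no filter on low counts. HIF-1α is controlled mostly as a protein, which was not measured in these libraries.

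*Egln1* (ENSMUSG00000031987, chr8:125635308-125676865, - strand), the main oxygen sensor, was at 73.9, 83.1, 75.1 and 76.2 CPM with vehicle and 74.9, 83.0, 82.0 and 78.1 CPM with bilirubin. These values overlapped, and the log2 fold change was 0.05 ± 0.037 (adjusted p = 0.57). *Egln3* (ENSMUSG00000035105, chr12:54225767-54250673, - strand), a sensor that is itself induced by hypoxia, was at 13.7, 19.3, 15.3 and 11.7 CPM and 10.3, 20.5, 19.1 and 16.1 CPM. Its log2 changes were -0.42, 0.08, 0.32 and 0.45 in mice 1 to 4, so that mouse 1 went against mice 3 and 4 (log2 fold change 0.12 ± 0.13, adjusted p = 0.675). Without mouse 1, *Egln3* passed as higher (adjusted p = 0.0347).

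The fall among the hypoxia response genes was that of *Pfkfb3* (ENSMUSG00000026773, chr2:11476244-11558888, - strand), whose enzyme makes fructose 2,6-bisphosphate, the strongest activator of phosphofructokinase. It held 72.2, 82.3, 71.7 and 66.3 CPM with vehicle and 48.1, 74.5, 55.6 and 55.8 CPM with bilirubin. It was lower with bilirubin in 4 of 4 mice, most in mouse 1 and least in mouse 2, whose bilirubin culture lay above 3 of the vehicle cultures, so that the groups overlapped. The log2 fold change was -0.34 ± 0.067 (adjusted p = 0.0201). It missed the threshold without mouse 3 (adjusted p = 0.145), without mouse 4 (0.0711) and when mice were not paired (0.164). *Pfkfb2* and *Pfkfb4*, enzymes of the same family, had log2 fold changes of 0.11 (adjusted p = 0.356) and 0.00835 (0.961). *Pfkfb3* made up 50.8% ± 2.90 of the TPM of the 3 genes with vehicle and 43.6% ± 3.48 with bilirubin, lower in 4 of 4 mice.

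*Bnip3l* (ENSMUSG00000022051, chr14:67222678-67246356, - strand), a receptor that targets mitochondria to autophagy, was at 75.7, 92.2, 86.9 and 82.8 CPM with vehicle and 89.2, 104, 94.0 and 96.7 CPM with bilirubin. It was higher in 4 of 4 mice while the groups overlapped, and the mice differed as much as the treatments (log2 fold change 0.19 ± 0.037, adjusted p = 0.0183). The call rested on the pairing by mouse (adjusted p = 0.159 without it) and was lost without mouse 2 (0.081), mouse 3 (0.0651) or mouse 4 (0.13), and with an offset for transcript length (0.131). *Bnip3*, its relative, had a log2 fold change of 0.26 ± 0.067 and was higher in 4 of 4 mice, with an adjusted p of 0.0557. *Pdk1*, which diverts pyruvate from the mitochondria, had one of 0.21 ± 0.056 (adjusted p = 0.0588) and was the hypoxia response gene whose groups did not overlap in CPM, although by little in mouse 1. With an offset for transcript length, the estimate of *Pdk1* was 0.10 (adjusted p = 0.548). In TPM its groups overlapped, and mice 1 and 3 were lower with bilirubin (19.2 to 19.1 and 24.3 to 22.8 TPM). *Bnip3* and *Pdk1* passed without mouse 1 and with no filter on low counts, and *Bnip3* also with DESeq2.

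None of the other 6 hypoxia response genes passed. *P4ha2*, a collagen prolyl hydroxylase, was lower in 4 of 4 mice (log2 fold change -0.30 ± 0.086, adjusted p = 0.0767), and passed as lower with DESeq2, on library size alone and with no filter on low counts. Its paralog *P4ha1* had an adjusted p of 0.998, with log2 changes by mouse of -0.27, 0.08, 0.10 and 0.09, and its estimate had no stable sign. *Ndrg1*, *Kdm3a* and *Ankrd37* had log2 fold changes of 0.02, -0.05 and -0.15. For *Ddit4*, at 1.66, 1.70, 1.44 and 1.25 CPM with vehicle and 0.748, 1.55, 1.70 and 0.846 CPM with bilirubin, the mice spread too widely for a change of this size to be seen (log2 fold change -0.37 ± 0.26, adjusted p = 0.493).

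The median log2 fold change of the glycolysis genes lay between 0.14 and 0.22 in the 12 alternative settings, while the number of calls changed. The number of the 21 genes called higher was 10 with DESeq2 or limma-voom, 8 on library size alone, 7 without the pairing by mouse, 7 with an offset for transcript length and 13 with no filter on low counts. On library size alone the median of all tested genes was -0.028 on the log2 scale in place of -0.002, with 527 higher and 556 lower genes in place of 616 and 417 over the whole table, and the same 8 glycolysis genes remained higher. No setting gave more than 1 glycolysis gene as lower, which was *Hk3* in 4 settings and *Ldhb* in 1. For the hypoxia response genes, calls ranged from 0 to 5 higher and from 0 to 2 lower.

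**Figure D5:**
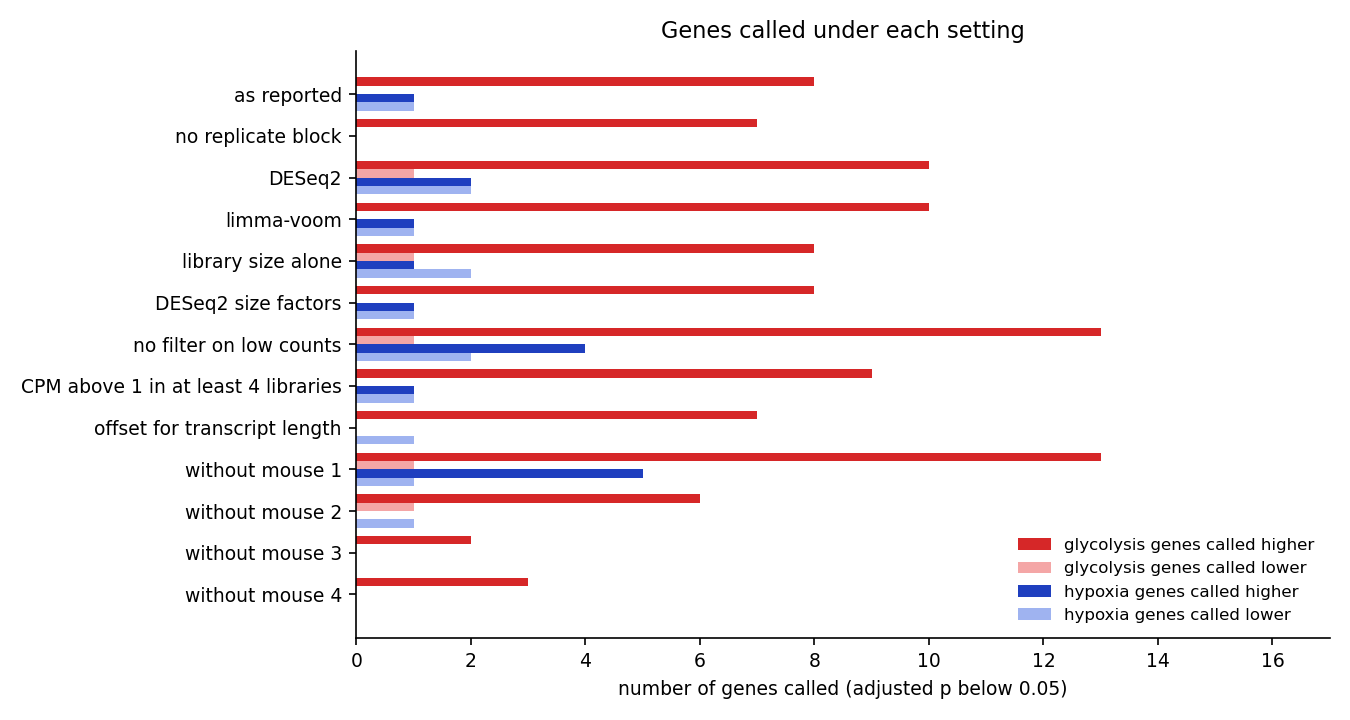
The number of glycolysis and hypoxia response genes called higher or lower as reported and under each of 12 alternative settings, as horizontal bars from 0. The glycolysis genes called higher number 8 as reported and between 2 and 13 in the alternatives, where the lowest counts are without mouse 3 (2) and mouse 4 (3).

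Other genes around the pathway were counted from lists written by hand. Of 28 further known hypoxia targets, 25 were tested, and 5 rose and 2 fell (28.0%), against 7.53% of all tested genes in either direction, with a median log2 fold change of 0.065. *Lox*, a collagen cross-linking enzyme, rose most, from 0.273, 1.01, 2.89 and 1.20 CPM to 2.79, 3.27, 9.05 and 4.68 CPM (log2 fold change 2.03 ± 0.25, adjusted p = 0.00207), higher in each mouse while the groups overlapped. *P4hb*, the shared subunit of the collagen prolyl hydroxylases, rose from 628 ± 13.9 to 740.4 ± 46.2 CPM (SD, n = 4, adjusted p = 0.00475). *Gys1*, which makes glycogen, rose from 29.9 ± 1.58 to 35.8 ± 2.37 CPM (adjusted p = 0.00941), and *Bhlhe40*, a transcriptional repressor, fell from 84.2 ± 6.13 to 66.5 ± 11.1 CPM (adjusted p = 0.00665). The calls of *P4hb* were lost without mouse 3 (0.0605) or mouse 4 (0.0538), those of *Gys1* without mouse 3 (0.0959) or mouse 4 (0.0518), and that of *Bhlhe40* without mouse 3 (0.0659). With an offset for transcript length, *Gys1* (0.0545) and *Bhlhe40* (0.051) were lost as well. Without the pairing by mouse, *Lox* (0.0764) and *Bhlhe40* (0.0793) missed the threshold. The well-known target *Vegfa*, named here although it did not pass, had a log2 fold change of 0.07 ± 0.079 (adjusted p = 0.673).

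Among 11 further genes of the HIF machinery, 10 were tested, and 1 passed (10.0%), a share near the 7.53% of all tested genes. *Epas1*, which encodes HIF-2α, was at 24.8, 20.6, 23.2 and 22.1 CPM in vehicle cultures and fell to 19.5, 13.2, 11.2 and 12.0 CPM in bilirubin cultures. The groups did not overlap, mouse 1 moved least, and the log2 fold change was -0.73 ± 0.11 (adjusted p = 0.00471), with the call held in all 12 alternatives.

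Of 14 further isozymes and hexose transporters, 6 were tested and 1 passed, against 7.53% of all tested genes. This was *Slc2a6*, a hexose transporter of the lysosomal membrane. It rose from 16.8 ± 1.25 to 26.1 ± 2.94 CPM (SD, n = 4) without overlap (log2 fold change 0.63 ± 0.091, adjusted p = 0.00433). Of 13 genes by which pyruvate enters mitochondria, 12 were tested and *Pcx* alone passed (8.33%), a share near the 7.53% of all tested genes. This gene, which encodes the enzyme that makes oxaloacetate from pyruvate, was at 9.91, 9.43, 9.63 and 9.55 CPM in vehicle cultures and 19.0, 19.3, 24.4 and 22.7 CPM in bilirubin cultures. Each bilirubin library was higher than every vehicle library (log2 fold change 1.14 ± 0.080, adjusted p = 0.000153), a larger estimate than that of any of the 36 genes. The pyruvate dehydrogenase subunits in that list (*Pdha1*, *Pdhb*, *Pdhx*, *Dlat* and *Dld*) had log2 fold changes between -0.0114 and 0.0818, with adjusted p-values between 0.281 and 0.993. In the pentose phosphate pathway, which branches off at glucose 6-phosphate, 2 of 9 genes rose (22.2%), against 4.49% of all tested genes. *G6pdx*, its entry enzyme, rose from 211 ± 4.74 to 252 ± 9.62 CPM (SD, n = 4, adjusted p = 0.00612), and *Taldo1* from 644 ± 19.8 to 742 ± 74.2 CPM (adjusted p = 0.0489). *G6pdx* missed the threshold without mouse 3 (0.0557), and *Taldo1* without mouse 2 (0.203), mouse 3 (0.214) or mouse 4 (0.254), without the pairing (0.117) or with the length offset (0.0969).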

How the data were processed

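RNA from 8 cultures, a vehicle and a bilirubin culture of each of 4 mice, was enriched for poly-A transcripts and sequenced. The authors trimmed reads with Trim Galore 0.6.7 and cutadapt 3.4, aligned them with STAR 2.7.9a to GRCm39, quantified transcripts with Salmon 1.10.1 and summed them per gene, per the methods and the submitters' processing notes. They deposited estimated counts per gene, without scaling, and for each library the TPM of transcripts, which is scaled for length and depth. After rounding, the test was run in edgeR 4.0.16 under R 4.3.3 (TMM, filterByExpr with at least 10 counts and 15 in total, model of mouse and treatment, quasi-likelihood test, Benjamini-Hochberg adjustment over 13722 genes, threshold 0.05). The F statistic of a gene gave the SE of its fold change. Changes in single mice are log2 CPM with a prior count of 2. TPM was summed over the transcripts of a gene. Pairing came from the labels, which give each culture the number of its mouse pair. Deviations from group means correlated within mice 1 to 4 at 0.108, 0.134, 0.108 and -0.005, and at no more than 0.0751 between mice. The 4 pairs came from separate mice, so p-values weigh the mean change within pairs against its variation between mice. edgeR estimates that variation partly from the other tested genes. Each mouse gave a single culture per treatment, so the variation includes differences between cultures.

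Alternatives were no pairing, DESeq2 1.42.0, limma-voom 3.58.1, library size alone, DESeq2's size factors, no filter, CPM above 1 in 4 libraries, an offset for the effective length of transcripts, and leaving out each mouse. Members, lists and alternatives were chosen with earlier results of these data known. Values in every library are given for genes past the threshold, for the gene of each glycolytic step with the highest TPM, and for *Hif1a*, *Egln1* and *Egln3*. From other lists, up to 4 genes with the smallest adjusted p past the threshold are named, some with mean and SD only. The procedure was tested on simulated data that held known changes but no differences between mice, so the pairing was not covered. Its recovery of changes of the size seen here is not reported. Positions are those of GRCm39 in GENCODE, and deposited transcript lengths differ from it for some transcripts.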

Additional observations from a re-analysis of the deposited data

Results flagged for a closer look

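Among the 36 genes, each in 4 vehicle and 4 bilirubin libraries, 7 of 72 sets of 4 libraries held a library far from the others, judged by the gap to the nearest library as a share of the set's whole range of log2 CPM. Chance alone would give about 1 in 20. In 3 of the 7 the distant library was the bilirubin library of mouse 1. It was lowest for *Aldoa* (share 0.832, 1829 CPM against 2158 to 2231), for *Pgam1* (0.874, 843 CPM against 989 to 1012) and for *Pkm* (0.862, 3667 CPM against 4349 to 4470). The vehicle library of mouse 1 was lowest for *Eno1* (0.873, 958 CPM against 1026 to 1036). The vehicle library of mouse 4 was lowest for *Hk1* (0.907, 175 CPM against 183 to 184) and that of mouse 3 highest for *Eno2* (0.907, 28.6 CPM against 24.7 to 25.1). For *Ndrg1* the bilirubin library of mouse 2 was highest (0.875, 82.9 CPM against 69.5 to 71.1). The bilirubin library of mouse 1 was also the shallowest, with 34142766 counts, and the part of depth was not tested.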

How the results depend on the processing

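Each of the 36 genes was refitted under 12 alternatives. Of the 432 results, 363 kept direction and side of the threshold, 31 newly passed, 23 no longer passed and 15 changed sign. None of the genes that changed sign had passed as reported, and the cause was not tested. With a mouse left out, the log2 fold change ran from -0.10 to 0.00757 for *Hk2*, -0.040 to 0.11 for *Slc16a1*, -0.041 to 0.054 for *Pfkfb4*, -0.034 to 0.085 for *P4ha1*, -0.015 to 0.044 for *Ndrg1*, -0.25 to 0.031 for *Ankrd37* and -0.089 to 0.00822 for *Kdm3a*. On library size alone the sign turned for *Slc16a1* (-0.00871), *Pfkfb4* (-0.0180) and *Ndrg1* (-0.00411), with the length offset for *Ndrg1* (-0.0178), and for *P4ha1* without the replicate block (0.00522) and with limma-voom (0.000492). Of 108 results of the 9 other genes past the threshold that are named, 93 kept their side and 15 no longer passed.

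Over all genes, calls fell from 1033 to 686 without the replicate block (the pairing by mouse), with 228 lower. They were 1692 (774 lower) with no filter, where 26021 genes were tested, and 579 (372 higher, 207 lower) with the length offset. With no filter, adjusted p-values of edgeR also fell at nearly the same fold change. For *Slc2a1* the log2 fold change was 0.320 as reported and 0.315 with no filter, and the adjusted p was 0.0592 and 3.25e-07. The cause was not tested. Leaving out a mouse gave 377 to 1910 in all, 265 to 1026 higher and 112 to 884 lower. Glycolysis genes called higher numbered 13 with no filter and 2 to 13 with a mouse left out, and 7 without the replicate block. Those called lower numbered 1 with DESeq2, on library size alone and with no filter, and 0 to 1 with a mouse left out. Hypoxia response genes called higher numbered 0 without the replicate block, 2 with DESeq2, 4 with no filter, 0 with the length offset and 0 to 5 with a mouse left out. Those called lower numbered 0 without the replicate block, 2 with DESeq2, on library size alone and with no filter, and 0 to 1 with a mouse left out.

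Shares within a step in vehicle cultures, from CPM in place of TPM and so without scaling for length, were 59.5% for *Hk3*, 54.8% for *Pfkp*, 96.1% for *Aldoa*, 97.5% for *Eno1*, 97.5% for *Ldha*, 73.6% for *Slc16a3*, 61.4% for *Pfkfb3*, 83.8% for *Egln1* and 86.1% for *P4ha1*. Counts per kilobase of mean effective length gave the glycolysis genes 1.73% of transcripts in vehicle and 1.93% in bilirubin cultures. *Ddit4* and *Ankrd37* had the lowest CPM, where counting error weighs most.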
